A study of Mus musculus with 4 samples.

Results

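The transforming growth factor beta (TGF-beta) set held 8 genes, the ligands *Tgfb1*, *Tgfb2* and *Tgfb3*, the latency protein *Ltbp1*, the receptors *Tgfbr1*, *Tgfbr2* and *Tgfbr3*, and the inhibitor *Smad7*. All 8 were found by symbol among the 32285 genes of the count matrices. Single cells of E14.5 mouse ventricles were profiled in 4 libraries, 2 of control embryos, with genotype Tie2Cre;*Ets1* fl/+, and 2 of *Ets1* eKO embryos with both alleles floxed, Tie2Cre;*Ets1* fl/fl, all on a C57BL/6 background. Each library pooled 3 ventricles, and the labels place all 4 in batch 1. The study used embryos of both sexes and did not type them for sex. The controls also carry Tie2Cre and 1 floxed allele of *Ets1*, so the comparison is between loss of both copies and loss of a single copy. Tie2Cre is active in endocardium and vascular endothelium, and also in blood cells and in the cushion mesenchyme that descends from endocardium. The question asked of these genes was whether and in which cells their RNA differed between *Ets1* eKO and control ventricles.

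TGF-beta ligands are secreted bound to their own propeptide, and latent TGF-beta binding proteins such as Ltbp1 anchor that inactive complex in the matrix. Freed ligand binds the type II receptor Tgfbr2, which activates the type I receptor Tgfbr1, and Smad proteins then carry the signal to the nucleus. Tgfbr3, also called betaglycan, is a co-receptor that presents ligand, above all the product of *Tgfb2*, and Smad7 is an inhibitor that the pathway itself induces. In the embryonic heart the pathway is known for the change of cushion endocardium into mesenchyme and for growth of the ventricular wall.

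The gene models lie at chr7:25687002-25705077 (*Tgfb1*, plus strand), chr1:186622792-186705989 (*Tgfb2*, minus), chr12:86056745-86079041 (*Tgfb3*, minus), chr4:47353222-47414931 (*Tgfbr1*, plus), chr9:116084293-116175360 (*Tgfbr2*, minus), chr5:107106570-107289629 (*Tgfbr3*, minus) and chr17:75005568-75392512 (*Ltbp1*, plus) in GENCODE vM21 on GRCm38, the build of the mm10 counts. Ets1 belongs to a family of transcription factors whose DNA site has the core GGAA. For the 4 members that changed, or whose change differed between cell classes, the 250 bases before the start are shown from RefSeq on GRCm38, 5′ to 3′ on the gene's strand, with each GGAA and its reverse complement TTCC in capitals.
Tgfb2, chr1:186705990-186706239, minus strand: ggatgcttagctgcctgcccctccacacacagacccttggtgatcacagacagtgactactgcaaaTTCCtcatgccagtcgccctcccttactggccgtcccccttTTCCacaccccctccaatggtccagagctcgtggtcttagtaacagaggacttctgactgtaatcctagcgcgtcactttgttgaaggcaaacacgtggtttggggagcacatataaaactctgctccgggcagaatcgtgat
Tgfb1, chr7:25686752-25687001, plus strand: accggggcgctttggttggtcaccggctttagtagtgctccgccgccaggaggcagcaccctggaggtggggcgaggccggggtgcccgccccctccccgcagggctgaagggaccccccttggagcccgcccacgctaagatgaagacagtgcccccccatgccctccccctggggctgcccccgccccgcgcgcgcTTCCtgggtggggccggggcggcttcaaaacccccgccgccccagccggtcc
Tgfbr2, chr9:116175364-116175613, minus strand: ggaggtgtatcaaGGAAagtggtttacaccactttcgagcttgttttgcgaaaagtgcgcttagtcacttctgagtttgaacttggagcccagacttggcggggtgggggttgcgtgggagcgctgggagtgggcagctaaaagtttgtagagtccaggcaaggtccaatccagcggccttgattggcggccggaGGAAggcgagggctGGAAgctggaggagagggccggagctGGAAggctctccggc
Ltbp1, chr17:75005279-75005528, plus strand: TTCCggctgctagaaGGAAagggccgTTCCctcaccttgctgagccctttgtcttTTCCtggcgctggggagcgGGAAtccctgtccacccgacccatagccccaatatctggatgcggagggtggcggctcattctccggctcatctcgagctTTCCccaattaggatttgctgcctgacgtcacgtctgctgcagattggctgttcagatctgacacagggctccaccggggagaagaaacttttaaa
The core occurred 2 times before *Tgfb2*, 1 time before *Tgfb1*, 4 times before *Tgfbr2* and 6 times before *Ltbp1*. A second *Ltbp1* start held 2 matches, and the 2 starts of *Tgfbr1* held 0 and 5. Of 32851 windows of the same length, 93.5% held at least 1 match and the median was 3, so these counts do not set the members apart. The longer motif CCGGAAGT, searched on both strands, was in none of the 7 windows of members and in 2.88% of all windows. Of the *Tgfb2* window, 167 bases lie in an exon of the antisense gene Gm29491, and the other 6 windows overlap no annotated exon. Start windows were matched for 5 of the 8 members. *Tgfb3* and *Tgfbr3* had no entry, and no window was printed or counted for *Smad7*.

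The matrices held 45551 barcodes, and 32885 cells with at least 2000 UMIs (unique molecular identifiers, counted molecules) entered the gates. Median depth in these cells was 9505 to 10053 UMIs in 3 libraries, and *Ets1* eKO replicate 2 was shallowest at 5988. Between 19 and 47 barcodes were shared by each pair of libraries, at most 0.44% of the smaller. Cells were placed in classes by marker scores, and names end in "-like". The mural endocardial class (mEndo-like, 3482 cells) held *Npr3* at 722 to 954 CPM (UMIs of the gene summed over the class, after setting every library to equal total UMIs in it), against 10.7 to 15.7 in the coronary vascular class (cvEC-like, 1512 cells), where *Fabp4* was at 5610 to 8843. The valve endocardial class (vEndo-like, 920 cells) held *Prox1* at 261 to 316 CPM, and the cushion mesenchyme-like class (2488 cells) held *Sox9* at 505 to 637. *Npr3*, *Fabp4*, *Prox1* and *Sox9* are genes of the gates themselves, so these levels describe the classes and do not test them. The other classes were cardiomyocyte-like (16478 cells), *Tcf21*-type fibroblast-like (1667), epicardial-like (795), immune-like (636) and mural-like cells (265). The cardiomyocyte subclasses held 4876 compact-like, 2649 trabecular-like and 1363 AV canal-like cells. No subclass was reached by 1206 endothelial, 2983 stromal and 7590 cardiomyocyte-like cells. For endothelial cells that was 6.90% and 9.08% of the control libraries against 17.9% and 25.8% of the *Ets1* eKO libraries, for stromal cells 34.7% and 37.4% against 40.5% and 54.7%, and for cardiomyocyte-like cells 47.7% and 38.8% against 51.8% and 44.4%. Free RNA was not removed, and the 8 cardiomyocyte genes of the gate summed to 535 to 2409.8 CPM in the 8 classes that are not cardiomyocytes.

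*Ets1* itself was lower in *Ets1* eKO in all 3 endothelial classes. In mEndo-like cells it was at 284 and 262.5 CPM in control against 122 and 101 in *Ets1* eKO, a log2 fold change of -1.25 (SE 0.13, edgeR adjusted p = 0.000858). The change was -1.03 in cvEC-like cells (SE 0.19, edgeR adjusted p = 0.0273) and -1.25 in vEndo-like cells (SE 0.15, edgeR adjusted p = 0.0281). The cvEC-like call was lost without control replicate 1 (adjusted p = 0.0723), and the vEndo-like call with the replicate number as a block (adjusted p = 0.143). In cushion mesenchyme-like cells the difference was -0.81 and did not pass the threshold (edgeR adjusted p = 0.0665).

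The members differed widely in where they were found, and each level below is the mean over all 4 libraries ± SD. *Tgfb1* was highest in immune-like cells (248.5 ± 40.1 CPM, n = 4) and next in cvEC-like (146 ± 14.1), vEndo-like (119 ± 8.58) and mEndo-like cells (102 ± 15.3). It was lowest in cardiomyocyte-like cells, at 1.58 ± 0.196 CPM. The ranges of vEndo-like and mEndo-like cells overlapped, and the immune-like range lay above all others.

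*Tgfb2* was highest in other classes. Its level was 280 ± 105 CPM in cushion mesenchyme-like, 212 ± 55.1 in mEndo-like and 198 ± 33.8 in epicardial-like cells over both genotypes, and neighbouring classes in the order overlapped from there down to cardiomyocyte-like cells (86.6 ± 13.6). It was far lower in cvEC-like cells (15.7 ± 2.04) and in immune-like cells (4.38 ± 2.44), which overlapped with no other class. This order differed by genotype, with control means of 357 CPM in cushion mesenchyme-like, 211 in epicardial-like and 168 in mEndo-like cells, and *Ets1* eKO means of 202, 185 and 255. In control, the means of mural-like (199.9 CPM) and *Tcf21*-type fibroblast-like cells (172) also lay above that of mEndo-like cells. Their *Ets1* eKO means were 120 and 146. Within the myocardium, *Tgfb2* lay at 158 to 241 CPM in atrioventricular (AV) canal-like, 86.0 to 124 in compact-like and 33.6 to 45.6 in trabecular-like cardiomyocytes, ranges that did not overlap.

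*Tgfb3* reached 48.7 ± 12.5 CPM in cushion mesenchyme-like and 48.4 ± 12.5 in epicardial-like cells, which could not be separated by their ranges. It stood at 23.4 ± 4.46 in *Tcf21*-type fibroblast-like cells and at 1.38 ± 0.405 in cvEC-like cells, where only 23 UMIs were counted over the 4 libraries. *Ltbp1* was highest in vEndo-like cells (533 ± 41.0 CPM), followed by cushion mesenchyme-like (450 ± 103) and mEndo-like cells (332 ± 40.4). In cvEC-like cells it was 54.5 ± 9.54, below every library of those 3 classes.

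Among the receptors, *Tgfbr3* was the most restricted. It was at 358 ± 76.1 CPM in mEndo-like cells, and the next class, cardiomyocyte-like cells, was at 54.3 ± 12.0. The cvEC-like mean was 53.1 ± 9.71 and the vEndo-like mean 47.9 ± 11.4, and these 3 lower classes overlapped. With unsmoothed scores the vEndo-like mean was 75.2 CPM, above cardiomyocyte-like (52.6) and cvEC-like cells (53.9). *Tgfbr2* was also highest in mEndo-like cells (242 ± 17.7 CPM), above vEndo-like (137 ± 15.7), immune-like (119 ± 31.6) and cvEC-like cells (115 ± 22.4), and was lowest in cardiomyocyte-like cells (5.45 ± 0.626). *Tgfbr1* varied least, from 55.7 ± 11.3 CPM in cvEC-like to 343 ± 27.3 in immune-like cells, and 7 classes in between formed a run in which only cushion mesenchyme-like cells (192 ± 11.9) stood clear of the next class down. *Smad7* was highest in cushion mesenchyme-like cells (259 ± 37.3 CPM) and lowest in cardiomyocyte-like cells (30.0 ± 5.28).

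**Figure D1:**
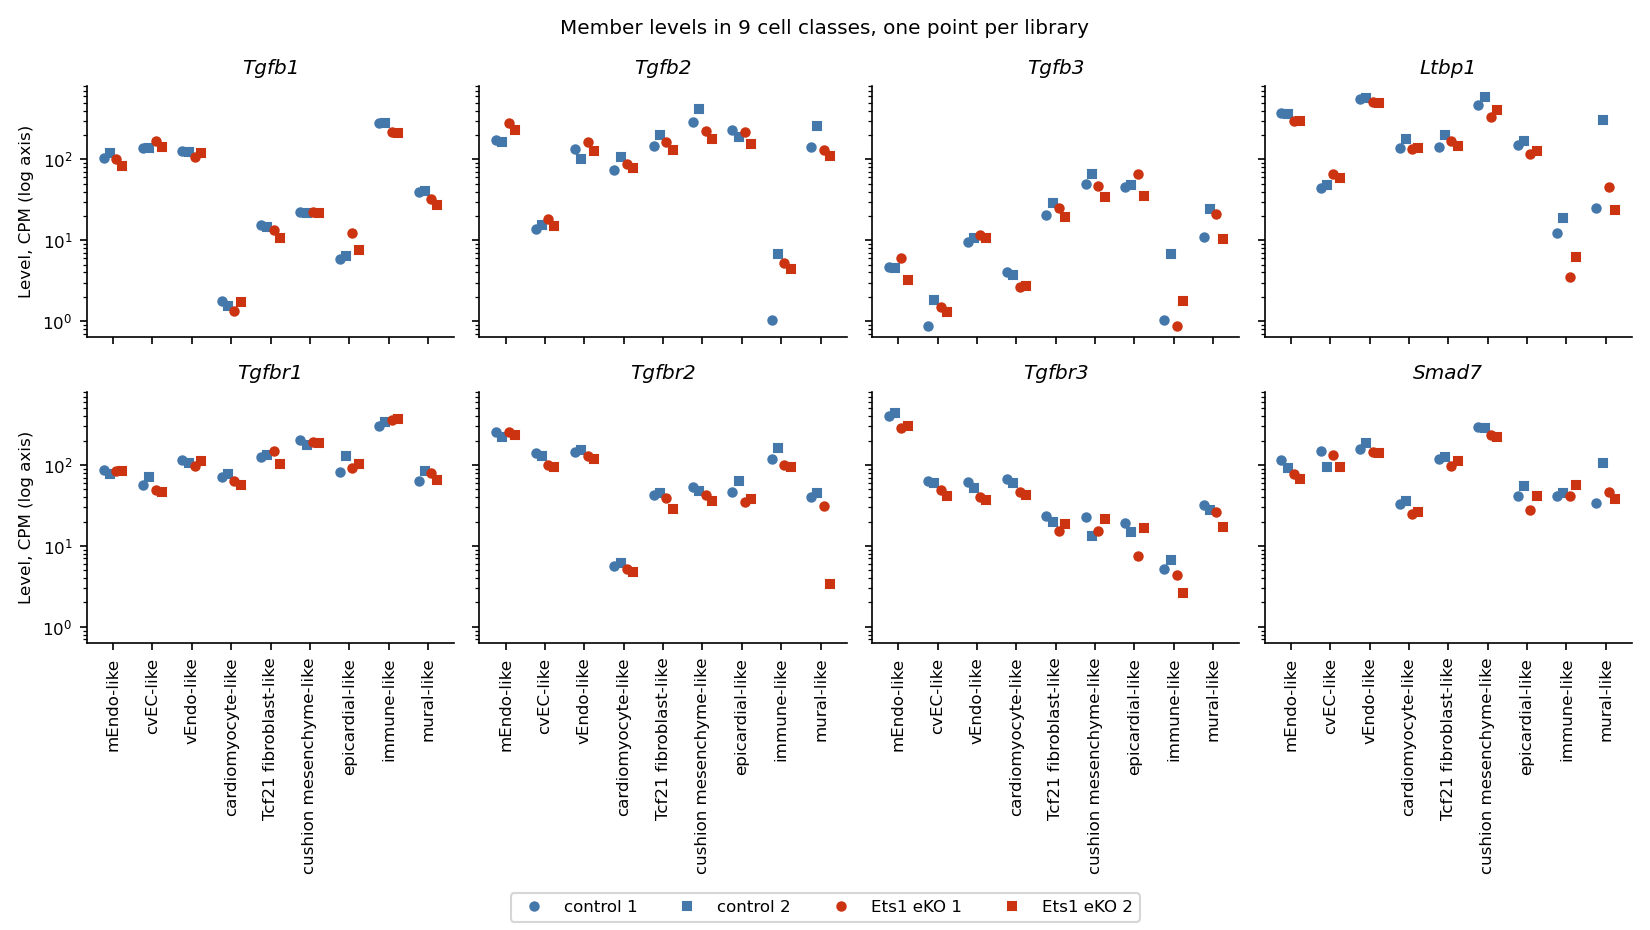
Level of each member (CPM of summed UMIs, log axis) in 9 cell classes, with 1 point per library, blue for control and red for *Ets1* eKO. *Tgfbr3* is highest in mEndo-like cells in all 4 libraries, and *Tgfb2* is low in cvEC-like and immune-like cells.

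Over the 36 sums of 9 classes in 4 libraries, the gene whose log2(CPM + 1) followed *Tgfb2* most closely was *Rbms3* (Pearson r = 0.952 across sums that share libraries and depth), with *Thra* (0.951) and *Gata6* (0.950) next. *Tgfb1* was followed by *Irf2* (0.959), *Tlr4* (0.945) and *Fxyd5* (0.945), and *Tgfb3* by *Gli2* (0.945), *Col11a1* (0.938) and *Thbs2* (0.933). For *Tgfbr1* these were *Fnip1* (0.941), *Lpin2* (0.926) and *Rcbtb2* (0.911), and for *Tgfbr2* *Cflar* (0.945), *Mvb12b* (0.907) and *Pdcd6ip* (0.904). *Tgfbr3* was less closely followed, by *4930402H24Rik* (0.898), *Grk5* (0.870) and *Pik3c2b* (0.864). *Smad7* was followed by *Smad1* (0.910), *Rarg* (0.896) and *Fam3c* (0.882), and *Ltbp1* by *Strbp* (0.939), *Meis2* (0.923) and *Auts2* (0.918). In all, 12097 genes were compared, and these coefficients describe the levels over classes only.

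Between *Ets1* eKO and control, *Tgfb2* in mEndo-like cells was the only member that passed an adjusted p of 0.05. Of 91 pairs of a member and a class with enough counts to test, over 9 classes and 3 cardiomyocyte subclasses, 1 passed. Unadjusted p was under 0.05 in 21 pairs, of which 19 were lower in *Ets1* eKO. Among all genes, 4.78 to 19.8% had such a p, depending on the class, and 47.8 to 50.04% of all genes tested were lower. The latter share is over genes at any p, so it is not matched to the 19 of 21 pairs. The other 70 pairs had log2 fold changes from -0.93 to 0.66. These pairs share libraries, and the cardiomyocyte subclasses are part of the cardiomyocyte-like class.

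*Tgfb2* rose in mEndo-like cells of *Ets1* eKO ventricles, taken as 1 class and not divided further. At 282 and 228 CPM, both *Ets1* eKO libraries lay above the controls, which held 172.5 and 163.5 CPM, and the sums rested on 5372 UMIs. The log2 fold change was 0.64 (SE 0.14, edgeR adjusted p = 0.0317, n = 2 libraries per group). Of all genes tested in this class 3.11% passed, against 1 of 8 members, and 1.44% of genes passed as higher, the direction of *Tgfb2*. DESeq2 also called *Tgfb2* alone among the members (adjusted p = 0.00607). The call did not survive leaving out control replicate 1 (log2 fold change 0.65, adjusted p = 0.128) or control replicate 2 (0.64, adjusted p = 0.127). It was also lost when every endothelial cell was put in its best subclass (0.56, adjusted p = 0.0811), which adds a larger share of cells in *Ets1* eKO than in control.

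The share of mEndo-like cells with a *Tgfb2* UMI, after thinning each cell to 2000 UMIs, was 26.3% and 23.9% for control against 38.1% and 32.7% for *Ets1* eKO. The exact 95% intervals were 23.5 to 29.3%, 20.7 to 27.5%, 34.5 to 41.7% and 30.1 to 35.4%, and cover counting error only. Without thinning the shares were 55.4%, 57.6%, 71.8% and 56.8%. In cvEC-like cells, where the *Tgfb2* level was low, the thinned share was 1.97 to 4.28%, and in immune-like cells at most 0.599%. Without thinning the immune-like share was 0.704 to 5.26%. Median depth before thinning was 4510 to 7517 UMIs in mEndo-like, 6306.5 to 11872 in cvEC-like and 3994 to 7276.5 in immune-like cells.

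Markers of other cells moved with genotype in the same class. The 8 stromal genes of the gate summed to 508 and 593 CPM in control against 1237 and 1317 in *Ets1* eKO, and 4 of them passed the test, all higher: *Lum*, *Col1a2*, *Gpc6* and *Ptn*. In vEndo-like cells the same list summed to 1143.5 and 1035 CPM in control and to 1273 and 1056 in *Ets1* eKO. *Lum* changed by 3.09 and *Col1a2* by 2.60 on the log2 scale (edgeR adjusted p = 1.11e-05 and 3.01e-05). Of the 8 genes that define the stromal subclasses, 5 could be tested and none passed. Over the 4 libraries their levels were 0.926 to 2.65 CPM for *Sox9*, 17.9 to 23.5 for *Hapln1*, 23.2 to 31.2 for *Tbx20*, 2.93 to 9.20 for *Robo2* and 3.24 to 5.47 for *Wt1*, and *Tcf21*, too low to test, was at 0 to 0.618. The 8 cardiomyocyte genes summed to 535 and 1017 CPM in control against 1202 and 1344 in *Ets1* eKO, with 1 of 8, *Tnni1*, past the threshold. *Tgfb2* itself stood at 178 to 421 CPM in cushion mesenchyme-like, 130 to 200.1 in *Tcf21*-type fibroblast-like and 74.7 to 105 in cardiomyocyte-like cells. Of the mural list 1 of 3 tested genes passed, and of the erythroid list 1 of 5, both higher, while none of the 3 immune genes tested did. Of the subclass markers, *Fabp4* of the cvEC list was higher (1.46, edgeR adjusted p = 0.00335), *Tnnt1* of the compact list was higher (0.84, edgeR adjusted p = 0.0463) and *Nfatc1* of the vEndo list was lower (-0.91, edgeR adjusted p = 0.00849). The 8 endothelial genes summed to 4437 to 4554 CPM in the controls and 4073 to 4499 in *Ets1* eKO, and none passed. The part of these marker changes in the *Tgfb2* result was not tested.

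**Figure D2:**
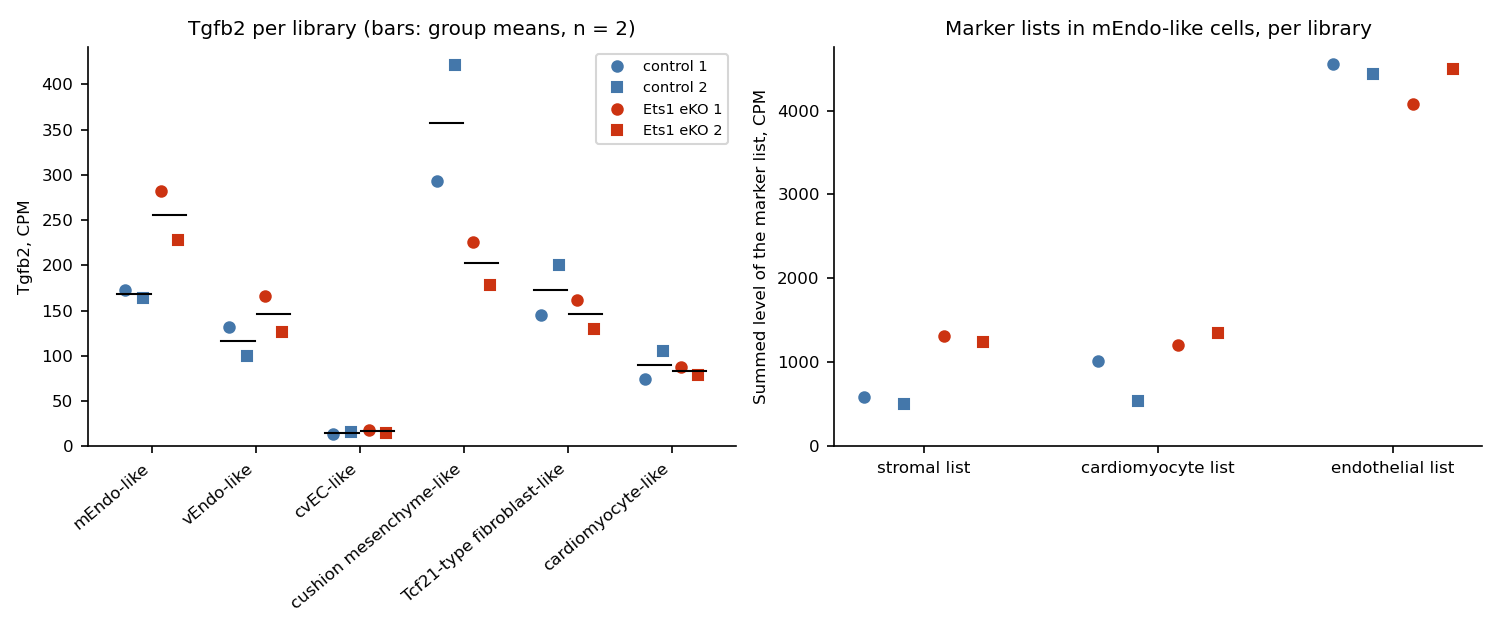
Left, *Tgfb2* level (CPM, linear axis from 0) per library in 6 classes, with horizontal lines at the group means (n = 2). Right, summed CPM of 3 marker lists in mEndo-like cells per library. *Tgfb2* is higher in both *Ets1* eKO libraries than in both controls in mEndo-like cells and lower in cushion mesenchyme-like cells, and the stromal list is higher in both *Ets1* eKO libraries.

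In cushion mesenchyme-like cells *Tgfb2* lay the other way without passing the threshold. The controls held 293 and 421 CPM and the *Ets1* eKO libraries 226 and 178, with no overlap. The log2 fold change was -0.75 (SE 0.18, edgeR adjusted p = 0.185), and none of 8 members passed in this class, where 0.12% of all genes did. Without control replicate 1 the same difference was -0.98 (adjusted p = 0.000813, with 1.51% of all genes called), and without *Ets1* eKO replicate 1 it was -0.95 (adjusted p = 0.0279, with 0.667% called), while without control replicate 2 it was -0.48 (adjusted p = 0.747). The summed stromal list of these cells was 6907 and 7257 CPM in control against 7648 and 6957 in *Ets1* eKO.

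The test of the difference between both classes was added after these values were seen. The *Tgfb2* change in mEndo-like cells exceeded that in cushion mesenchyme-like cells by 1.41 on the log2 scale (SE 0.16, edgeR adjusted p = 0.0002), while 1.23% of all genes passed that test. Against cardiomyocyte-like cells, where *Tgfb2* was level (0.01, SE 0.16), the difference of 0.61 did not pass (edgeR adjusted p = 0.0639), and 1.38% of genes did. *Tgfb2* did not pass in the remaining endothelial classes, where its log2 fold change was 0.29 (SE 0.21) for cvEC-like and 0.37 (SE 0.20) for vEndo-like cells. The change in mEndo-like cells was not shown to differ from either, with a difference of 0.37 from cvEC-like (SE 0.18, edgeR adjusted p = 0.446) and of 0.29 from vEndo-like cells (SE 0.16, edgeR adjusted p = 0.58).

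The other ligands passed the threshold in no class. *Tgfb1* stood at 104 and 120 CPM in control and at 100.1 and 82.6 in *Ets1* eKO mEndo-like cells (log2 fold change -0.26, SE 0.14, edgeR adjusted p = 0.347). In cvEC-like cells the same gene stood at 136 and 140 CPM in controls and at 167 and 142 in *Ets1* eKO (0.25, SE 0.15, edgeR adjusted p = 0.523). The change in mEndo-like cells was lower than that in cvEC-like cells by 0.47 on the log2 scale (SE 0.12, edgeR adjusted p = 0.039). That call was lost in 7 of 11 alternatives, among them without control replicate 2 (adjusted p = 0.179) and without either *Ets1* eKO library (0.183 and 0.184). In immune-like cells, where the *Tgfb1* level was highest, values were 282 and 284 CPM in control against 216 and 212 in *Ets1* eKO (-0.36, SE 0.20, edgeR adjusted p = 0.903). *Tgfb3*, with 118 UMIs in all mEndo-like cells, had a log2 fold change of 0.01 (SE 0.35). In cardiomyocyte-like cells it stood at 4.06 and 3.73 CPM in control against 2.67 and 2.71 in *Ets1* eKO (-0.42, SE 0.17, edgeR adjusted p = 0.377). Over the alternatives that difference ranged from -0.54 to -0.10.

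*Ltbp1* did not pass the threshold in any class, but its change differed between endothelial classes. In mEndo-like cells it was 371 and 362 CPM in control against 296 and 298 in *Ets1* eKO (log2 fold change -0.26, SE 0.13, edgeR adjusted p = 0.274). In cvEC-like cells it was 44.6 and 48.7 CPM in control against 65.5 and 59.1 in *Ets1* eKO (0.51, SE 0.15, edgeR adjusted p = 0.187). The groups did not overlap in either class and lay in opposite order. The difference of change between mEndo-like and cvEC-like cells was -0.74 (SE 0.13, edgeR adjusted p = 0.00115). Between cvEC-like and vEndo-like cells it was 0.67 (SE 0.13, edgeR adjusted p = 0.0242). Both were lost without *Ets1* eKO replicate 1, at adjusted p = 0.0795 and 0.114, and with the gate doubled, at 0.0794 and 0.0531. In cvEC-like cells the stromal list summed to 35.1 to 56.5 CPM in all 4 libraries, and the cardiomyocyte list to 684 and 805 CPM in control against 713 and 1252 in *Ets1* eKO. Of that list *Tnni1* passed (1.42, edgeR adjusted p = 0.0304), and *Tnnt1* of the compact list passed as well (1.41, edgeR adjusted p = 0.00113), both higher. Their part in the differences between classes was not tested. In mural-like cells *Ltbp1* reached 309 CPM in control replicate 2 and 24.0 to 45.8 in the other 3 libraries, so that library alone set a log2 fold change of -2.02 (adjusted p = 0.892) that became 0.66 without it.

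*Tgfbr2*, the ligand-binding receptor, also differed in its change between endothelial classes. In mEndo-like cells it stood at 257 and 221 CPM in control against 255.5 and 232 in *Ets1* eKO (0.07, SE 0.13). In cvEC-like cells it stood at 140.0 and 128 CPM in control against 99.1 and 93.7 in *Ets1* eKO (-0.39, SE 0.14, edgeR adjusted p = 0.31). The groups overlapped in the first class and not in the second. The difference was 0.49 (SE 0.11, edgeR adjusted p = 0.018), and was lost in 4 of 11 alternatives. These were either *Ets1* eKO library left out (adjusted p = 0.229 and 0.0903), unsmoothed scores (0.0657) and every endothelial cell in a subclass (0.0504). *Tgfbr1*, the signalling kinase of the pair, passed in no class. In cvEC-like cells it stood at 56.5 and 71.3 CPM in control against 48.8 and 46.1 in *Ets1* eKO (-0.33, SE 0.16, edgeR adjusted p = 0.426). Its change in mEndo-like cells (0.09, SE 0.12) exceeded that by 0.44, which did not pass (SE 0.15, edgeR adjusted p = 0.155).

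Of the 8 members, 3 thus differed in their change between mEndo-like and cvEC-like cells, where 1.69% of all genes did. The count was 5 without control replicate 1, with *Tgfbr1* and *Smad7* added (1.61% of all genes), 0 without *Ets1* eKO replicate 1 (0.539%) and 1, *Ltbp1*, when *Ets1* eKO replicate 2 was left out (1.42%). *Ltbp1* alone differed between cvEC-like and vEndo-like cells (0.627% of genes), and none between mEndo-like and vEndo-like cells (0.805% of genes), where *Tgfbr2* had an unadjusted p of 0.0475. DESeq2 was not run on these differences.

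**Figure D3:**
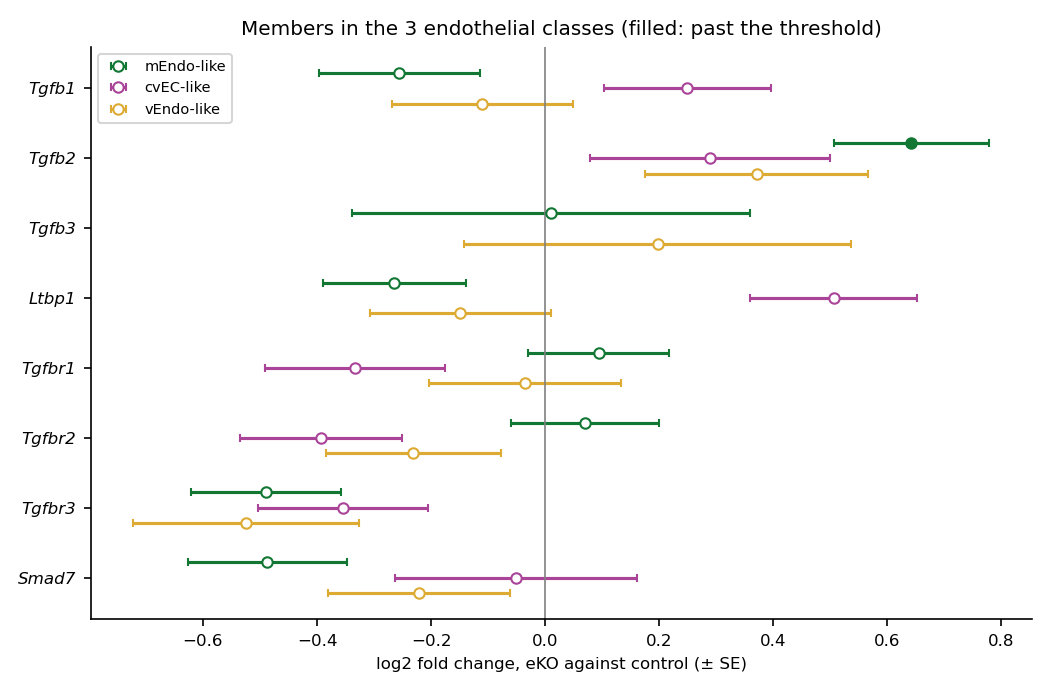
Log2 fold change of each member, *Ets1* eKO against control, in the 3 endothelial classes, with bars of ± 1 SE and filled points past the threshold. Only *Tgfb2* in mEndo-like cells is filled, and *Ltbp1* and *Tgfb1* lie on opposite sides of 0 in mEndo-like and cvEC-like cells.

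*Tgfbr3* was lower in *Ets1* eKO in 10 of the 11 classes tested, without passing the threshold in any. In mEndo-like cells, where its level was highest, the controls were at 408.5 and 437 CPM and *Ets1* eKO at 285 and 301 (log2 fold change -0.49, SE 0.13, edgeR adjusted p = 0.0759). In cardiomyocyte-like cells it was 67.9 and 60.6 CPM against 46.6 and 42.2 (-0.41, SE 0.12, edgeR adjusted p = 0.377). The groups did not overlap in either class. In compact-like cardiomyocytes the values were 68.1 and 69.8 CPM in control against 46.3 and 41.8 in *Ets1* eKO (-0.55, SE 0.11, edgeR adjusted p = 0.497). In trabecular-like cardiomyocytes the difference was -0.44 (SE 0.16) and in AV canal-like cardiomyocytes -0.79 (SE 0.26, from -1.02 to -0.27 over the alternatives). For the remaining endothelial classes it was -0.35 (SE 0.15, cvEC-like) and -0.52 (SE 0.20, vEndo-like, from -0.82 with the gate doubled to -0.11 with unsmoothed scores), and it was 0.04 (SE 0.30) in cushion mesenchyme-like cells. The median over all genes lay within 0.02 of 0 in each class, and these classes come from the same 4 libraries. Over the 9 classes without the cardiomyocyte subclasses, *Tgfbr3* was lower in 7 of 8 tested, and *Smad7*, *Ltbp1* and *Tgfbr2* each in 8 of 9. *Tgfb1* was lower in 6 of 8, *Tgfb2* in 4 of 8, *Tgfbr1* in 4 of 9 and *Tgfb3* in 3 of 7. How many of all genes lean 1 way over so many classes was not computed. The mEndo-like difference passed with scaling by total counts (adjusted p = 0.0498) and with no filter on low counts (0.0175).

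*Smad7* was lower in 10 of 12 classes, again without a call. It stood at 116 and 92.7 CPM in control and at 76.9 and 67.8 in *Ets1* eKO mEndo-like cells (-0.49, SE 0.14, edgeR adjusted p = 0.0918). In trabecular-like cardiomyocytes it was 33.9 and 25.5 CPM against 16.7 and 19.4 (-0.57, SE 0.19, edgeR adjusted p = 0.226). The groups did not overlap in either class. In cushion mesenchyme-like cells, where *Smad7* was highest, it was 292.5 and 290 CPM against 236 and 220 (-0.29, SE 0.13, edgeR adjusted p = 0.49).

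**Figure D4:**
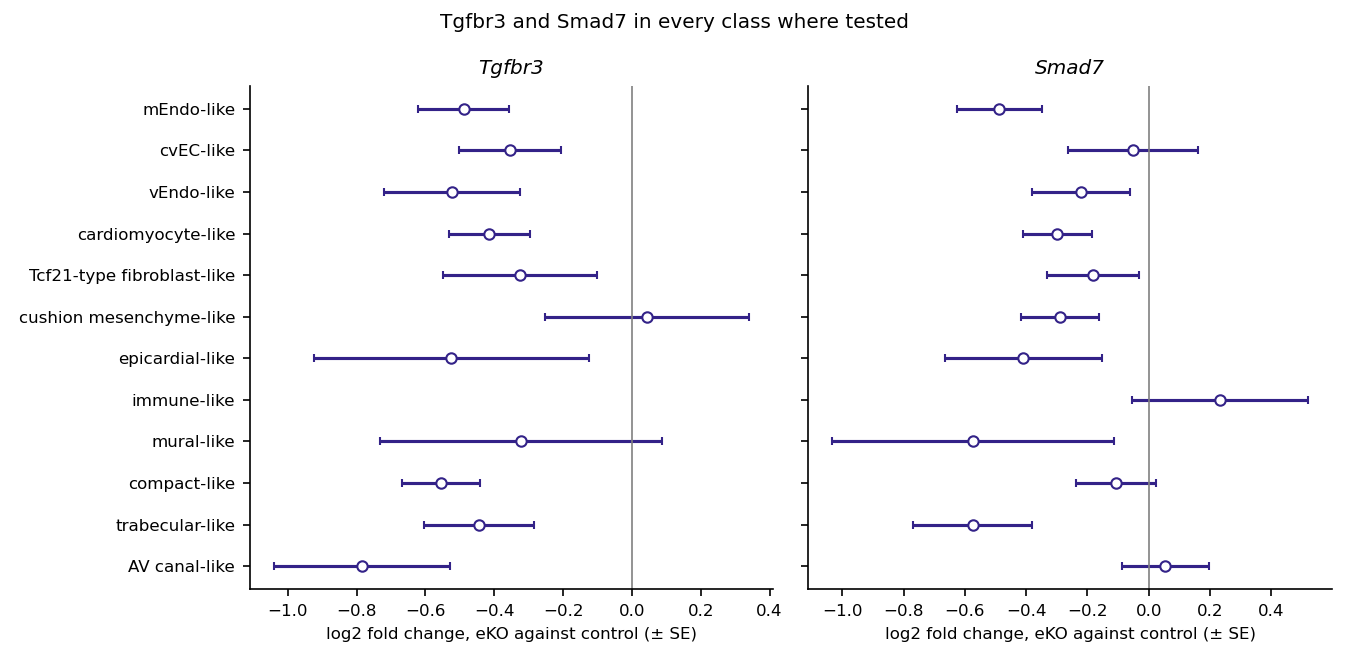
Log2 fold change of *Tgfbr3* (left) and *Smad7* (right), *Ets1* eKO against control, in each class where the gene could be tested, with bars of ± 1 SE and open points because none passed the threshold. *Tgfbr3* lies below 0 in all but cushion mesenchyme-like cells, and *Smad7* in all but immune-like cells and AV canal-like cardiomyocytes.

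Counts of members past the threshold were 0 in all classes other than mEndo-like cells with edgeR and with DESeq2. The share of all genes that passed with edgeR was 0.793% in cvEC-like, 0.047% in vEndo-like, 0.00626% in cardiomyocyte-like, 0.159% in epicardial-like, 0.0346% in immune-like, 0.0321% in trabecular-like and 0.521% in AV canal-like cells, and 0 in *Tcf21*-type fibroblast-like, mural-like and compact-like cells. Members with an unadjusted p under 0.05 numbered 3 of 8 in mEndo-like (19.8% of all genes), 3 of 7 in cvEC-like (12.1%) and 1 of 8 in vEndo-like cells (8.57%). The count was 3 of 8 in cardiomyocyte-like (13.1% of all genes), 3 of 8 in cushion mesenchyme-like (9.90%) and 0 of 8 in *Tcf21*-type fibroblast-like cells (4.78%). It was 1 of 7 in epicardial-like (7.12%), 1 of 5 in immune-like (5.59%) and 1 of 8 in mural-like cells (5.19%). Among cardiomyocyte subclasses it was 1 of 8 in compact-like (9.79%), 2 of 8 in trabecular-like (18.4%) and 2 of 8 in AV canal-like cells (13.8%).

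Of a further list of 61 genes of the pathway, 54 could be tested in mEndo-like cells, and 2 rose and 3 fell, while 1.44% of all genes tested rose and 1.67% fell. The median log2 fold change of the 54 was -0.20, against 0.01 over all genes, and 23 had an unadjusted p under 0.05 (19.8% of all genes). Among latency and activation genes, *Fbn2*, a fibrillin of the matrix that holds latent complexes, rose from 69.5 and 78.4 CPM to 155 and 138 (1.03, SE 0.13, edgeR adjusted p = 0.00228). *Mmp2*, a secreted protease, fell from 99.8 and 87.4 CPM to 50.8 and 54.0 (-0.80, SE 0.13, edgeR adjusted p = 0.00849). In both genes the groups were apart.

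Among receptors and co-receptors, *Acvrl1*, an endothelial type I receptor for BMP ligands also named ALK1, fell from 8.67 and 10.6 CPM to 4.43 and 3.71 (-1.19, SE 0.28, edgeR adjusted p = 0.0463). Its call was lost with DESeq2 (adjusted p = 0.154), under the doubled gate, and without control replicate 2 (0.164), *Ets1* eKO replicate 1 (0.0606) or *Ets1* eKO replicate 2 (0.17). The median of the 9 receptors tested was -0.38, and 8 of the 9 were below 0. Among 15 Smads and nuclear partners, *Smad6*, an inhibitory Smad of the BMP branch, fell from 135 and 116 CPM to 71.1 and 57.8 (-0.92, SE 0.14, edgeR adjusted p = 0.00607), and 13 of the 15 were below 0 with a median of -0.31. Of 17 response genes tested, *Col1a2*, a collagen chain that is also a gate marker of stromal cells, rose from 29.7 and 28.4 CPM to 202 and 142, and 6 of the 17 were below 0. The lean of receptors was not particular to mEndo-like cells, with 8 of 9 below 0 in cvEC-like, vEndo-like and cardiomyocyte-like cells. It was 6 of 9 in cushion mesenchyme-like and 4 of 8 in immune-like cells. For Smads and nuclear partners these classes had 14, 10, 13, 12 and 12 of 15 below 0.

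In cvEC-like cells 54 genes of the list were tested and none passed, with 16 at an unadjusted p under 0.05 by edgeR (12.1% of all genes) and a median of -0.14. In vEndo-like cells 55 were tested and none passed, with 10 at an unadjusted p under 0.05 (8.57% of all genes) and a median of -0.08. None passed in cushion mesenchyme-like cells (57 tested, 12 under 0.05, 9.90% of all genes) or in cardiomyocyte-like cells (59 tested, 16 under 0.05, 13.1% of all genes).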

How the data were processed

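The members and gene lists were chosen with earlier results of these data known. The authors deposited UMI counts per gene and barcode, not normalized, made with Cell Ranger 7.1.0 on mm10 from 10x 3′ v3.1 libraries. Whether intronic reads were counted is not given in the sources used here, and levels of different genes were not compared. Cells had 200 to 7000 genes, a mitochondrial share of counts of up to 20%, a ribosomal share of up to 35%, a hemoglobin share of up to 2%, and at least 2000 UMIs. Of 41669 cells that passed the first limits, 3666 were removed as likely doublets, by likeness to simulated doublets at a rate that rose with cell number, and 5118 held too few UMIs. Classes were gates on the mean z-score of marker lists, smoothed over 20 nearest cells of the same library, with members and *Ets1* left out (score and margin at least 0.5, and 0.25 for subclasses). These gates stand in for the clusters of the study. The study corrected for free RNA with CellBender, which was not done here.

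Summed UMIs of each class entered the quasi-likelihood test of edgeR 4.0.16, run in R 4.3.3 with TMM scaling and the filterByExpr filter over all genes. Calls were made at a Benjamini-Hochberg adjusted p of 0.05. A change was compared between a pair of classes in a joint fit with terms for library and class and their interaction with condition. With 2 libraries per group, an exact permutation of libraries cannot go below p = 0.333. Nothing states that the pools of a group came from separate litters, so p-values measure the spread between these libraries. Genes named are the 8 members, *Ets1*, the list genes past the threshold in endothelial classes, and the 3 genes most like each member with at least 10 CPM in a class. Marker genes were named beside the results that they move with. As alternatives, DESeq2 1.42.0 was run, scaling used total counts, the filter was dropped, the replicate number served as a block, and libraries were left out in turn. Cells were also gated with unsmoothed scores, with doubled gates, with doublets kept and with no UMI minimum. Assigning every parent cell to a subclass, and comparing mEndo-like with cushion mesenchyme-like and cardiomyocyte-like cells, were chosen after seeing the data. Steps were tested on simulated data, with 200 changed genes per class. At a true log2 fold change of 0.5, the test called 31 of them for cardiomyocyte-like and 19 for cvEC-like cells. Only 2 were called for mEndo-like cells, and 0 for vEndo-like, cushion mesenchyme-like and *Tcf21*-type fibroblast-like cells. At a true change of 1, from 141 (vEndo-like) to 186 (cardiomyocyte-like) were called. A change near 0.5 that did not pass the threshold is therefore not evidence of no change. Other work used Python 3.11.15, numpy 2.4.6, scipy 1.17.1 and scikit-learn 1.9.0.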

Additional observations from a re-analysis of the deposited data

Results flagged for a closer look

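The change of *Tgfb1* in mEndo-like cells differed from that in cvEC-like cells by -0.467 on the log2 scale (SE 0.118, edgeR adjusted p = 0.039). For *Tgfbr2* the same pair of classes differed by 0.487 (SE 0.11, edgeR adjusted p = 0.018), and for *Ltbp1* by -0.743 (SE 0.126, edgeR adjusted p = 0.00115). The *Ltbp1* change also differed between cvEC-like and vEndo-like cells, by 0.672 (SE 0.134, edgeR adjusted p = 0.0242). The *Tgfb2* change differed between mEndo-like and cushion mesenchyme-like cells by 1.41 (SE 0.157, edgeR adjusted p = 0.0002), in a comparison chosen after the values had been seen. These 5 results are listed because the test of the difference between classes passed the threshold. Over the alternatives run, adjusted p ranged from 0.00672 to 0.184 for *Tgfb1*, from 0.00978 to 0.229 for *Tgfbr2*, from 3.01e-06 to 0.0795 and from 0.00083 to 0.114 for the 2 *Ltbp1* results, and from 6.76e-25 to 0.00229 for *Tgfb2*. Groups of 2 libraries were too small to test for single libraries that stand apart.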

How the results depend on the processing

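Of 211 recomputed counts, 182 stayed the same or within 1.5 times, and most of these were counts of 0 that stayed at 0. In mEndo-like cells the count of 1 member became 2 with total count scaling (*Tgfb2*, *Tgfbr3*, with 3.27% of all genes called), 3 with no filter (*Smad7* added, 5.41%) and 0 with every parent cell in a subclass, and ranged from 0 to 1 with a library left out. With no filter it became 1 in cushion mesenchyme-like (*Tgfb2*, 1.48% of all genes), mural-like (*Ltbp1*, 0.71%), compact-like (*Tgfbr3*, 0.634%) and AV canal-like cells (*Tgfbr3*, 2.77%). With a library left out it ranged from 0 to 1 in cardiomyocyte-like, cushion mesenchyme-like, compact-like, trabecular-like and AV canal-like cells. *Tgfbr3* was the member added in the cardiomyocyte classes, without *Ets1* eKO replicate 1 (cardiomyocyte-like, compact-like and trabecular-like, where 15.7%, 13.2% and 24.3% of all genes were then called), *Ets1* eKO replicate 2 (compact-like, 1.89%) or control replicate 1 (AV canal-like, 1.85%). Between mEndo-like and cvEC-like cells the count of 3 became 1 with unsmoothed scores and 1 with every parent cell in a subclass, and ranged from 0 to 5 with a library left out. Between cvEC-like and vEndo-like cells it became 0 with the gate doubled and ranged from 0 to 2 with a library left out. Between mEndo-like and cushion mesenchyme-like cells it ranged from 1 to 2. Between mEndo-like and cardiomyocyte-like cells it became 1 with total count scaling and 1 with no filter, and ranged from 0 to 1. The *Ltbp1* change in mural-like cells ranged from -2.88 to 0.66 with a library left out. Each cause was not tested. Of 426 single values recomputed, 386 kept their direction and call, 25 lost and 14 gained it, and 1 reversed. The 386 include values that were not called and stayed so. The class with the highest level was kept for all 8 members with unsmoothed scores. The median share of cells with a UMI of a member was 11.3% after thinning and 35.02% without it.

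Same-numbered libraries share only a number. Their deviations correlated at -0.295 to 0.02 over classes. With the replicate number as a block, *Tgfb2* in mEndo-like cells had a log2 fold change of 0.64 (edgeR adjusted p = 0.0486), and counts of members were as without it. The block moved the number of genes called from 390 to 411 in mEndo-like and from 90 to 254 in cvEC-like cells. It moved from 5 to 3 in vEndo-like and from 15 to 5 in cushion mesenchyme-like cells. In cardiomyocyte-like cells the number moved from 1 to 77, in trabecular-like from 4 to 123 and in AV canal-like from 60 to 253. It moved from 0 to 26 in *Tcf21*-type fibroblast-like, from 16 to 46 in epicardial-like and from 3 to 22 in immune-like cells. The move was from 0 to 20 in mural-like and from 0 to 1 in compact-like cells. The *Ets1* call in vEndo-like cells was lost under the block (edgeR adjusted p = 0.143).

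Total count scaling moved the median of all genes by over 0.1 on the log2 scale in cardiomyocyte-like (-0.11), mural-like (-0.10) and trabecular-like cells (-0.14). The doubled gate left too few trabecular-like and AV canal-like cells for a fit. Genes called in mEndo-like cells numbered 244 to 1111 over the settings.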

Other observations

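Shares of cells with a UMI were also taken for the other members after thinning to 2000 UMIs. A *Tgfbr3* UMI was found in 48.6% and 49.9% of control and in 41.3% and 43.5% of *Ets1* eKO mEndo-like cells. The share was 10.6% and 8.44% against 9.48% and 7.04% in cvEC-like cells, and at most 1.32% in immune-like cells, where it was 0.797 to 2.82% without thinning. A *Ltbp1* UMI was found in 53.3 to 57.8% of vEndo-like cells and in 5.78 to 13.2% of cvEC-like cells. A *Tgfb1* UMI was found in 34.7 to 50% of immune-like and in 0.305 to 0.562% of cardiomyocyte-like cells. Free RNA was not removed, so low shares may be background.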
